A study of Mus musculus with 11 samples.

Results

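Expression of 10 genes of insulin and insulin-like growth factor (IGF) signalling was examined in the pancreas and the epididymal adipose tissue of mice with obesity-related acute pancreatitis (OA-AP) and of control mice. The genes are Igf1, Igfbp3, Insr, Igf1r, Irs1, Irs2, Grb10, Tbc1d4, Slc2a4 and Foxo1. They were taken by gene symbol from 54532 genes counted in the pancreas and 46078 counted in adipose tissue, and each of the 10 is listed in both tissues. All mice were wild-type males aged 16 weeks of the strain C57BL/6 by the sample labels, given as C57BL/6J in the methods. Control mice were fed a chow with 10 kcal% fat for 12 weeks and were given 2 intraperitoneal saline injections 1 h apart. OA-AP mice were fed a high-fat diet with 60 kcal% fat for 12 weeks and were given 2 intraperitoneal injections of ethanol at 2 g/kg, also 1 h apart. Tissue was taken 12 h after the first injection. The pancreas was sequenced in 2 control and 3 OA-AP libraries and adipose tissue in 3 control and 3 OA-AP libraries. Diet, ethanol and pancreatitis differed together between the groups, so their effects cannot be told apart.

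Insulin and IGF-I act through closely related receptor tyrosine kinases, encoded by Insr and Igf1r, and most circulating IGF-I is carried by binding proteins such as IGFBP-3. The activated receptors phosphorylate the docking proteins IRS1 and IRS2, which recruit PI3K and so activate Akt. In adipocytes, Akt phosphorylates the Rab GTPase-activating protein AS160 (Tbc1d4), which lets vesicles carrying the glucose transporter GLUT4 (Slc2a4) reach the cell surface, and it keeps the transcription factor FOXO1 out of the nucleus. In the pancreas, islets release insulin and acinar cells secrete digestive enzymes, and acinar cells carry insulin receptors.

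The pancreas libraries held 14188832 to 17238919 counts on genes and the adipose libraries 20825177 to 27928097. Values are CPM, counts scaled to the library's size, after trimmed mean of M-values (TMM) scaling, over the genes tested in that tissue. A gene was called upregulated or downregulated at an adjusted p-value under 0.05 in edgeR's quasi-likelihood test with a fold change of at least 1.5, and all adjusted p-values below come from this test unless another is named. Acinar markers matched the label of the pancreas, but their summed level was 563352 to 658434 CPM in control and 249240 to 319378 CPM in OA-AP libraries, and 8 of 10 were downregulated. Islet markers summed to 979 to 1200 CPM in control and 1353 to 1642 CPM in OA-AP pancreas, with 2 of 7 upregulated. The 7 adipocyte markers summed to 29.0 to 42.6 CPM in control and 48.5 to 81.7 CPM in OA-AP pancreas, and 1 of the 2 tested, Lipe, was upregulated (log2 1.25, adjusted p = 0.00174). Fabp4 made up most of that sum, while the defining markers Adipoq, Plin1, Lep and Cidec were at 0 to 0.229 CPM in every pancreas library. In adipose tissue the adipocyte markers summed to 37221 to 40355 CPM in control and 30626 to 37353 CPM in OA-AP libraries, with 1 of 7 upregulated and 2 downregulated. The neutrophil list rose there from 6.57 to 12.4 CPM to 144 to 178 CPM, with 5 of 5 tested markers upregulated, and 5 of 5 tested lymphocyte and 3 of 6 fibroblast markers were downregulated. Acinar secretory genes took 1.16% of the counts of adipose control replicate 2 and at most 0.0260% of those of the other adipose libraries. In whole tissue, fewer cells of a type and less RNA per cell cannot be told apart, and the part of these shifts in the results below was not tested.

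In the OA-AP pancreas the receptors, both docking proteins and Igfbp3 were upregulated, while Igf1 and Tbc1d4 were downregulated. Of the 10 genes 9 passed the filter on low counts. Of these 5 were upregulated and 2 downregulated, and over all genes tested 29.8% were called, 16.2% up and 13.5% down. The median log2 fold change of the 9 was 1.19, against 0.04 over all 12884 genes tested. In adipose tissue all 10 genes were tested, Irs1 and Slc2a4 were downregulated and 0 were upregulated, where 25.1% of the 15839 genes tested were called, 12.1% up and 13.0% down. That count of 2 in 10 is near the background, and the median of the 10 was -0.24 against -0.01 over all genes. At an unadjusted p under 0.05 Igfbp3 was also higher and Tbc1d4 also lower in adipose tissue, and DESeq2 called 2 genes upregulated there, Igfbp3 and Irs2. The groups did not overlap for 8 of the 9 genes in the pancreas and 4 of the 10 in adipose tissue, against 62.3% and 52.4% of all tested genes.

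**Figure D1:**
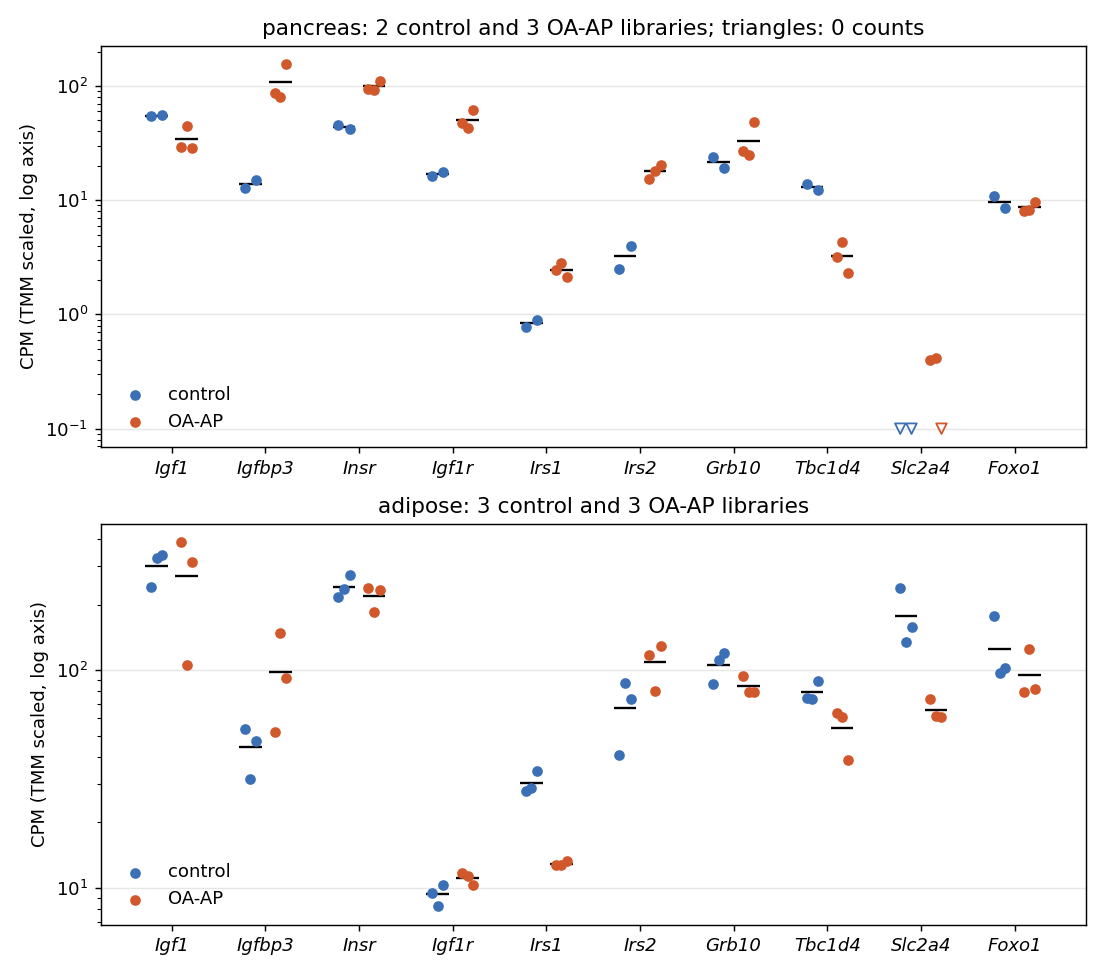
CPM of each of the 10 genes in every library of the pancreas (top) and adipose tissue (bottom) on a log axis, with control in blue, OA-AP in orange and the group mean as a line where no library is at 0. In the pancreas the OA-AP points of Igfbp3, Insr, Igf1r, Irs1 and Irs2 lie above both control points and those of Tbc1d4 below them, and open triangles mark the 3 libraries with 0 Slc2a4 counts.

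Igf1 was downregulated and Igfbp3 upregulated in the pancreas, and neither was called in adipose tissue. Igf1 (chromosome 10, 87858265 to 87937042, plus strand, GRCm38) encodes IGF-I, a growth factor made in many tissues. In the pancreas it stood at 54.1 and 55.6 CPM in control and at 29.5, 44.2 and 28.5 CPM in OA-AP libraries. All 3 OA-AP libraries lay below both controls, a log2 fold change of -0.69 (SE 0.20, adjusted p = 0.0318). This call depended on the scaling and on single libraries. With library totals alone as the scaling the value was 0.027, on the other side of 0 (adjusted p = 0.931), and without control replicate 1, control replicate 2 or OA-AP replicate 1 the adjusted p was 0.149, 0.172 and 0.104, over a range of 0.000932 to 0.931 for all 14 alternatives. In adipose tissue Igf1 stood at 240, 326 and 338 CPM in control and at 388, 106 and 315 CPM in OA-AP libraries. The groups overlapped and OA-AP replicate 2 was far below the rest. The log2 fold change was -0.16 (SE 0.44, adjusted p = 0.795) and turned to 0.23 without that library. OA-AP replicate 2 also had the highest summed endothelial markers of the adipose libraries, 1602 CPM against 937 to 1206 CPM in the others, and the lowest adipocyte sum. The part of this in its Igf1 level was not tested.

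Igfbp3 (chromosome 11, 7206086 to 7213923, minus strand) encodes IGFBP-3, which binds IGF-I and prolongs its time in the circulation. In the pancreas it stood at 12.8 and 15.0 CPM in control and at 87.5, 79.8 and 155 CPM in OA-AP libraries. Its increase was the largest among the 9 genes tested, with a log2 fold change of 2.95 (SE 0.33, adjusted p = 0.00112), or 7.75-fold. OA-AP replicate 3, the highest, was also the library with the most neutrophil RNA, 95.0 CPM over the marker list against 12.3 and 3.26 CPM in the other OA-AP libraries. Of the 5 neutrophil markers tested in the pancreas 0 were called. The same library had the highest duct sum (128 CPM) and the lowest mesothelial sum (0.575 CPM) of the pancreas libraries. The part of these in its Igfbp3 level was not tested. Without this library the log2 fold change was 2.55. In adipose tissue Igfbp3 stood at 53.9, 31.6 and 47.2 CPM in control and at 52.1, 149 and 92.4 CPM in OA-AP libraries. Only OA-AP replicate 1 fell within the control range. The log2 fold change of 1.14 (SE 0.38) was not called (adjusted p = 0.0563), but it was called by DESeq2 (adjusted p = 0.00503) and without OA-AP replicate 1 (1.45, adjusted p = 0.0133). Without OA-AP replicate 2, the highest library, the value was 0.71 (adjusted p = 0.122). Over all 15 alternatives the adjusted p ran from 0.00503 to 0.221.

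Both receptors were higher in the OA-AP pancreas. Insr (chromosome 8, 3122061 to 3279617, minus strand) encodes the insulin receptor. Its level was 45.1 and 41.6 CPM in control and 94.4, 91.8 and 111 CPM in OA-AP pancreas, with no overlap and little spread within either group. The log2 fold change was 1.19 (SE 0.14, adjusted p = 0.000873), or 2.29-fold. In adipose tissue the levels overlapped, at 216, 236 and 273 CPM in control and 239, 185 and 234 CPM in OA-AP libraries, and the log2 fold change was -0.14 (SE 0.14, adjusted p = 0.481). Igf1r (chromosome 7, 67952827 to 68233668, plus strand) encodes the IGF-I receptor. Its level was 16.4 and 17.8 CPM in control and 47.8, 43.0 and 61.4 CPM in OA-AP pancreas. These groups were far apart, with a log2 fold change of 1.57 (SE 0.19, adjusted p = 0.000793), or 2.97-fold. In adipose tissue Igf1r stood at 9.52, 8.22 and 10.3 CPM in control and at 11.8, 11.3 and 10.4 CPM in OA-AP libraries. The lowest OA-AP library was barely above the highest control, and the log2 fold change of 0.25 (SE 0.13) was not called (adjusted p = 0.180).

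Both docking protein genes were upregulated in the pancreas, and Irs1 was downregulated in adipose tissue. Irs1 (chromosome 1, 82233101 to 82291416, minus strand) encodes IRS1, a main substrate of the insulin receptor in fat and muscle. In the pancreas it was near the lower limit of detection, with 9 and 9 counts in control and 47, 49 and 41 counts in OA-AP libraries, or 0.772 and 0.897 CPM against 2.47, 2.80 and 2.14 CPM. The groups did not overlap, and the log2 fold change was 1.56 (SE 0.39, adjusted p = 0.0171). The call was lost without control replicate 1 (adjusted p = 0.116), control replicate 2 (0.0914) or OA-AP replicate 1 (0.0544), while the value stayed between 1.46 and 1.67 over all libraries left out in turn. Over all 13 alternatives that kept the gene the adjusted p ran from 0.00182 to 0.116. In adipose tissue Irs1 stood at 27.8, 28.7 and 34.5 CPM in control and at 12.7, 12.8 and 13.3 CPM in OA-AP libraries. The OA-AP libraries were nearly identical to each other and well below every control. The log2 fold change was -1.23 (SE 0.11, adjusted p = 0.000691), or 2.35-fold lower, and it was called under every alternative, with values from -1.38 to -1.11.

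Irs2 (chromosome 8, 10984681 to 11008458, minus strand) encodes IRS2, which carries much of insulin's signal in the liver and in beta cells. Pancreatic Irs2 stood at 2.49 and 3.99 CPM in control and at 15.4, 17.9 and 20.4 CPM in OA-AP libraries. The 3 OA-AP libraries were several times above both controls, with a log2 fold change of 2.48 (SE 0.25, adjusted p = 0.000417), or 5.56-fold. In adipose tissue the level was 40.7, 87.0 and 74.0 CPM in control and 117, 80.4 and 130 CPM in OA-AP libraries. OA-AP replicate 2 lay below the highest control. The log2 fold change of 0.70 (SE 0.30) was not called by edgeR (adjusted p = 0.114) and was called by DESeq2 (adjusted p = 0.0476), the lowest of the 15 alternatives, of which the highest gave 0.252. Without control replicate 1 the value was 0.45.

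The promoters of the docking protein genes are shown because Irs1 and Irs2 were the only members whose window held the E-box CACGTG, a site read by bHLH factors such as the clock and MYC families. Of the 10 genes 8 had promoter windows from RefSeq (GRCm38.p6), 9 windows in all, each of 250 bases before an annotated start. Capitals mark the E-box and the GC box GGGCGG or its reverse complement. The windows are chr1:82291440-82291689 and chr8:11008930-11009179, both on the minus strand.
Irs1: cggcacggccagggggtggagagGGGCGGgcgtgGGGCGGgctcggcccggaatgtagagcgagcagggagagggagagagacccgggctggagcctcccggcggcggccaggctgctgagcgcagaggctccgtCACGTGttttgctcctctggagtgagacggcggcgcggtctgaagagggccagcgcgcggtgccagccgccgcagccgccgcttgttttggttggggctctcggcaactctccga
Irs2: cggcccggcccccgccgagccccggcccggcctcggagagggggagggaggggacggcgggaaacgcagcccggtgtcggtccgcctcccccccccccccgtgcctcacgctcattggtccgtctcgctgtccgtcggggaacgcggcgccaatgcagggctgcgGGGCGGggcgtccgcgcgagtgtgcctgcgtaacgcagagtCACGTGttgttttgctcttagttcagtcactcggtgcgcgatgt
The E-box begins 115 bases before the RefSeq start in Irs1 and 44 bases before it in Irs2. For both genes the RefSeq start lies upstream of the gene bounds given above, which come from the deposited table, so these distances are not to those bounds. It was found in 2 of the 9 windows and in 6.02% of 32851 mouse windows of the same length, searched on both strands. The GC box was found in 6 of the 9 windows and in 32.7% of all windows, with overlapping matches counted. The FOXO site GTAAACA and the STAT site TTCNNNGAA were found in 0 of the 9 windows and in 3.17% and 7.02% of all windows. G and C made up 72.4% of the Irs1 and 72.8% of the Irs2 window. Over the 9 windows this share ran from 52.8% (Igf1) to 81.2% (a Grb10 window), against a median of 52.4% over all windows. The shares of all windows with a site were not matched for it, so the counts are not read as a trait of these genes. A match is a run of letters, and binding was not measured here.

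Grb10 (chromosome 11, 11930508 to 12038683, minus strand) encodes an adaptor that binds the insulin and IGF-I receptors and dampens their signal. Pancreatic Grb10 stood at 23.8 and 19.0 CPM in control and at 26.7, 25.1 and 47.9 CPM in OA-AP libraries. The groups did not overlap, but OA-AP replicate 3 carried most of the difference, and the log2 fold change of 0.63 (SE 0.30) was not called (adjusted p = 0.148). Without that library the value was 0.22. Pancreatic Grb10 stayed uncalled in 12 of 14 alternatives and was called in the others, with values from 0.22 to 1.31 over all 14. In adipose tissue the levels were 86.2, 111 and 120 CPM in control and 93.9, 79.7 and 79.5 CPM in OA-AP libraries. These overlapped, with a log2 fold change of -0.33 (SE 0.14, adjusted p = 0.112).

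Of the glucose transport genes, Tbc1d4 was downregulated in the pancreas and Slc2a4 in adipose tissue. Tbc1d4 (chromosome 14, 101442360 to 101609191, minus strand) encodes AS160, which holds GLUT4 vesicles inside the cell until Akt phosphorylates it. In the pancreas it stood at 13.8 and 12.3 CPM in control and at 3.15, 4.35 and 2.30 CPM in OA-AP libraries. Every OA-AP library was far below both controls, with a log2 fold change of -2.00 (SE 0.27, adjusted p = 0.00133), or 4.00-fold lower, and the direction held with library totals alone (-1.28). In adipose tissue Tbc1d4 stood at 74.5, 73.7 and 89.6 CPM in control and at 63.4, 61.3 and 38.6 CPM in OA-AP libraries. The groups did not overlap there either, but the log2 fold change of -0.54 (SE 0.19) was not called (adjusted p = 0.0656), and it was -0.34 without OA-AP replicate 3. Slc2a4 (chromosome 11, 69942539 to 69948188, minus strand) encodes GLUT4, the insulin-regulated glucose transporter of fat and muscle. In adipose tissue it stood at 239, 134 and 158 CPM in control and at 73.7, 61.8 and 60.7 CPM in OA-AP libraries. The highest OA-AP library was well below the lowest control, with a log2 fold change of -1.44 (SE 0.22, adjusted p = 0.00351), or 2.71-fold lower. Of the adipocyte markers, Adipoq, Cidec, Fabp4 and Lipe gave log2 values of -0.26, 0.15, 0.19 and -0.44 that were not called. Plin1 (-1.47) and Cfd (-1.22) were downregulated, while Lep was upregulated (2.38). The part of adipocyte RNA in the Slc2a4 result was not tested. In the pancreas Slc2a4 had 0 counts in both controls and in OA-AP replicate 1 and 7 and 8 counts in the other OA-AP libraries. It was not tested, and 0 counts there allow up to 0.257 and 0.299 CPM in the controls, from a floor of 3 counts per library that covers counting error only.

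Foxo1 (chromosome 3, 52268336 to 52353221, plus strand) encodes FOXO1, the transcription factor that insulin signalling inactivates. Pancreatic Foxo1 stood at 10.9 and 8.48 CPM in control and at 8.09, 8.24 and 9.68 CPM in OA-AP libraries. These groups overlapped, with a log2 fold change of -0.16 (SE 0.19, adjusted p = 0.549) that turned to 0.53 with library totals alone and to 0.038 without control replicate 1. In adipose tissue the level was 177, 96.9 and 102 CPM in control and 79.0, 126 and 81.5 CPM in OA-AP libraries. A high control and a high OA-AP library set most of the spread, and the log2 fold change was -0.40 (SE 0.29, adjusted p = 0.314). It was -0.048 without control replicate 1 and -0.64 without OA-AP replicate 2, and was not called under any of the 15 alternatives.

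**Figure D2:**
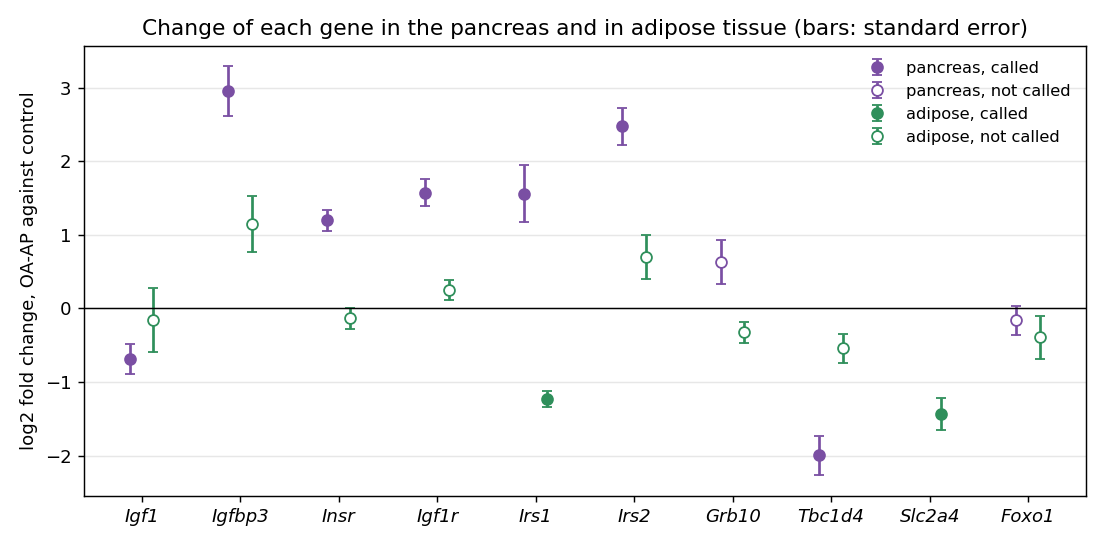
Log2 fold change of each gene in OA-AP against control in the pancreas (purple) and in adipose tissue (green), with standard errors as bars, filled points for called genes and open points for those not called. Irs1 was upregulated in the pancreas (1.56) and downregulated in adipose tissue (-1.23), and Slc2a4 has a point for adipose tissue alone.

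The change itself was then compared between the tissues, by the tissue by condition term of a fit over all 11 libraries. Of the 10 genes 5 differed, 1 with a higher and 4 with a lower value in adipose tissue, where 20.6% of the 17046 genes tested differed, 10.4% higher and 10.2% lower. Irs1 differed most among the genes called, by -2.81 on the log2 scale in adipose tissue relative to the pancreas (SE 0.29, adjusted p = 0.000101), and its calls in the separate tissues had opposite signs. Insr differed by -1.34 (SE 0.21, adjusted p = 0.00101) and Igf1r by -1.33 (SE 0.22, adjusted p = 0.00158), both upregulated in the pancreas and not called in adipose tissue. Irs2 differed by -1.79 (SE 0.46, adjusted p = 0.0191), with a positive value in both tissues. Without pancreas control replicate 1 this Irs2 difference was -1.49 and was not called (adjusted p = 0.110, against 0.000582 at the lowest of the 20 alternatives). Tbc1d4 differed in the other direction, by 1.45 (SE 0.34, adjusted p = 0.0112), since it was the more reduced in the pancreas. That call was lost without pancreas control replicate 1 (adjusted p = 0.0573) and with library totals alone (0.60, adjusted p = 0.228), and the lowest of its 20 alternatives gave 0.000833. For Igfbp3 the difference of -1.82 (SE 0.60) was not called (adjusted p = 0.0567). It stayed uncalled in 14 of 20 alternatives and was called in the others, with values from -2.63 to -1.45 over all 20. DESeq2 was among those that called it (adjusted p = 0.0120, in a range of 0.00435 to 0.176). For Grb10 the difference of -0.97 (SE 0.35) was not called either (adjusted p = 0.0745). The Grb10 difference was called in 4 of 20 alternatives, with library totals alone (-1.78), with 10 counts in every library (-0.995), without pancreas OA-AP replicate 2 (-1.14) and without adipose control replicate 1 (-1.16), its adjusted p ran from 0.000900 to 0.253, and without pancreas OA-AP replicate 3 the value was -0.61. Igf1 (0.51) and Foxo1 (-0.24) were not called, with adjusted p-values of 0.588 and 0.744. Slc2a4 was tested and not called either (-8.40, SE 2.82, adjusted p = 0.0623). It stayed uncalled in 15 of the 19 alternatives that kept the gene. The size of its difference is not read, since its control pancreas was at 0.

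The choice of scaling bore on every pancreas value. The OA-AP pancreas held less acinar secretory RNA, 67.5% to 70.2% of counts against 81.5% and 82.9%, and the TMM factors were 1.11 to 1.32 in OA-AP and 0.698 and 0.793 in control libraries. Scaling by library totals alone moved the median log2 fold change of all pancreas genes from 0.04 to 0.75, and the share of upregulated genes among those called from 54.5% to 92.0%. TMM factors computed without the acinar genes gave nearly the same values as the full set, 1.17 for Insr, 1.54 for Irs1 and -2.03 for Tbc1d4. Igfbp3, Insr, Igf1r, Irs1 and Irs2 kept their direction and their call under all 4 scalings. Relative to the median gene they lay above it under each. In adipose tissue library totals moved the median of all genes from -0.01 to -0.17 and the upregulated share from 48.1% to 32.1%, and Tbc1d4 was then downregulated as well (-0.69, adjusted p = 0.0300, the lowest of the 15 alternatives, up to 0.203).

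**Figure D3:**
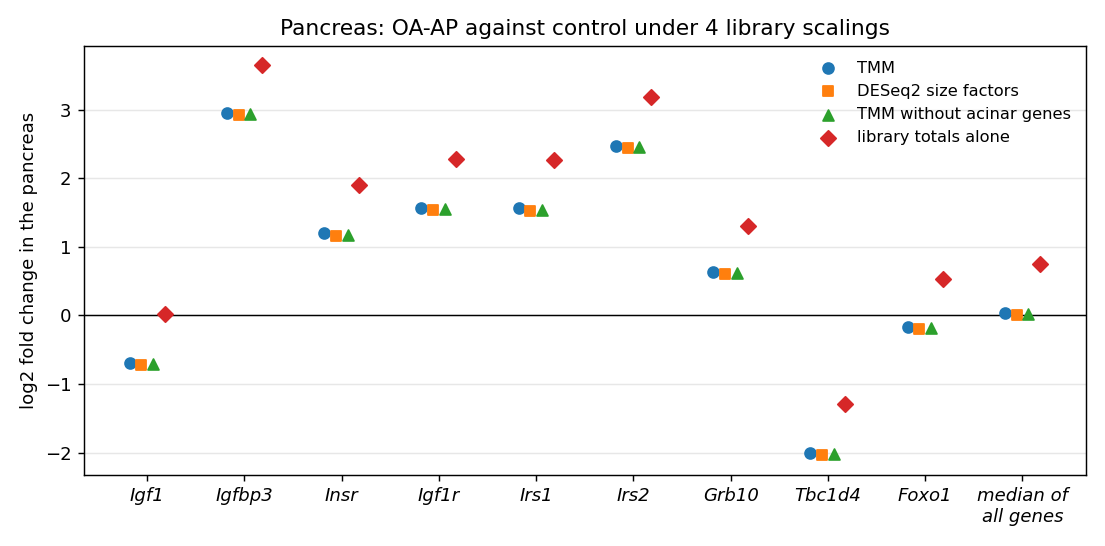
Log2 fold change in OA-AP against control pancreas of the 9 tested genes and of the median of all genes, under TMM, DESeq2's size factors, TMM without acinar genes and library totals alone. The first 3 scalings nearly coincide, while library totals alone lift every value, with Igf1 from -0.69 to 0.027 and the median from 0.04 to 0.75.

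Levels were also compared between genes, per kilobase of the deposited gene length. In control adipose tissue Slc2a4 led with 51.0 ± 15.8 CPM per kb (SD, n = 3), followed by Igf1 with 30.4 ± 5.42 and Insr with 17.6 ± 2.13 (SD, n = 3). Igf1r was the lowest there, at 0.557 ± 0.0630 CPM per kb (SD, n = 3). In control pancreas Igf1 led with 5.54 ± 0.113, Igfbp3 followed with 4.43 ± 0.490 and Insr with 3.15 ± 0.179 CPM per kb (SD, n = 2). Irs1 was the lowest of the genes detected, at 0.0913 ± 0.00967 CPM per kb (SD, n = 2). Between the control tissues in the 11-library fit, Irs1 (log2 difference 3.21, SE 0.24, adjusted p = 3.23e-07), Irs2 (2.41, SE 0.38, adjusted p = 0.000239), Foxo1 (1.72, SE 0.32, adjusted p = 0.000745) and Tbc1d4 (0.63, SE 0.25, adjusted p = 0.0491) were higher in adipose tissue. The Tbc1d4 call was lost without either pancreas control, without pancreas OA-AP replicate 1 and without adipose control replicate 3. Slc2a4 was at least 162-fold higher in adipose tissue, against the floor of 3 counts per library. Igf1r was lower in adipose tissue by -2.84 (SE 0.17, adjusted p = 4.87e-08). These are 5 of the 10 genes higher and 1 lower, where 55.5% of all genes were called in this contrast, 29.4% higher and 26.0% lower. The counts of each tissue were deposited separately, with different numbers of genes listed. Tissue therefore cannot be told apart from any difference in how the counts were made, which the labels do not describe. With library totals alone the median gene moved from 0.22 to 2.67, Igfbp3 went from -0.30 to 2.17 and Igf1r from -2.84 to -0.37. Over the 4 groups in that fit Igf1r ran from OA-AP pancreas through control pancreas and OA-AP adipose tissue to control adipose tissue with each neighbour apart from the next. Irs1 ran from control adipose through OA-AP adipose and OA-AP pancreas to control pancreas, again with no overlap between neighbours. For Irs2 the middle groups, OA-AP pancreas and control adipose tissue, overlapped, and for Grb10 every neighbouring pair did.

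Ratios of gene pairs within a library do not depend on the scaling. The pairs were chosen after the values were seen and are given without a test. The ratio of Irs2 to Irs1, per length, was 4.66 and 6.43 in control pancreas and 9.05, 9.21 and 13.8 in OA-AP pancreas. In adipose tissue it was 2.11, 4.38 and 3.10 in control and 13.4, 9.09 and 14.1 in OA-AP libraries. The groups did not overlap in either tissue, and Irs2 exceeded Irs1 in every library. The ratio of Insr to Igf1r was 3.36 and 2.86 in control and 2.41, 2.61 and 2.21 in OA-AP pancreas. It was lower in every OA-AP library than in both controls. In adipose tissue it was 27.7 to 35.0 in control and 20.0 to 27.7 in OA-AP libraries, where the nearest libraries of the groups were about equal. The ratio of Igfbp3 to Igf1 was 0.748 and 0.851 in control and 9.40, 5.72 and 17.2 in OA-AP pancreas. In adipose tissue it overlapped, at 0.712, 0.306 and 0.442 in control and 0.425, 4.44 and 0.929 in OA-AP libraries.

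**Figure D4:**
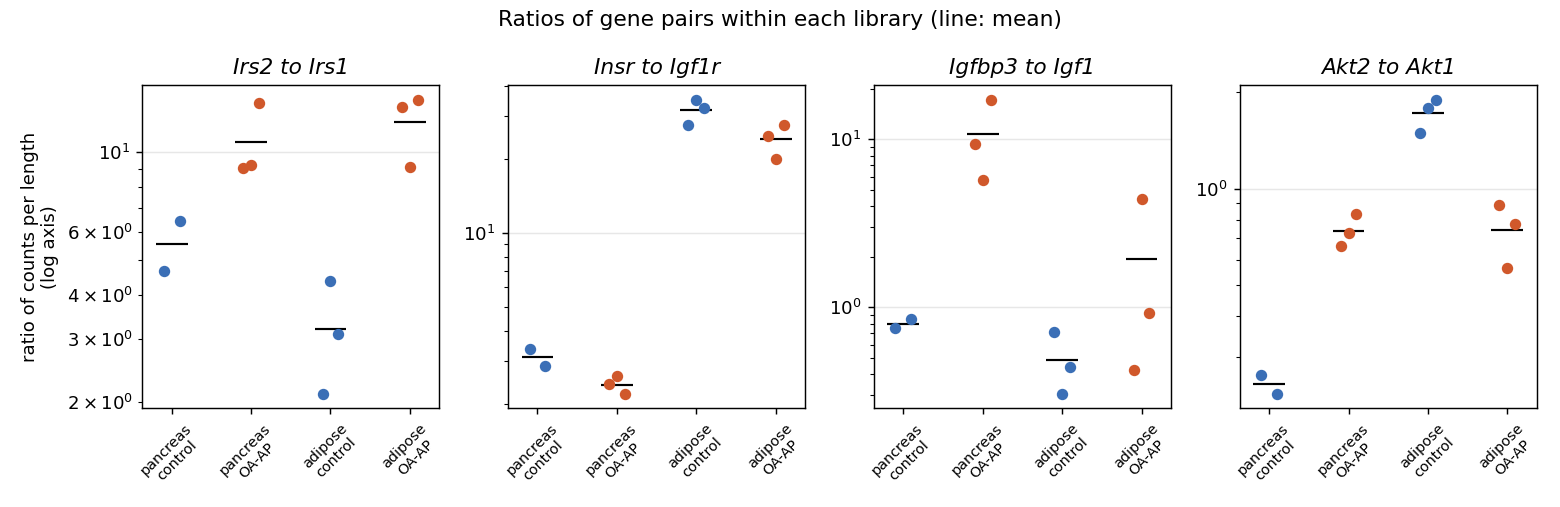
Within-library ratios of counts per length for 4 gene pairs on log axes, with control libraries in blue, OA-AP libraries in orange and group means as lines. The ratio of Irs2 to Irs1 is higher in every OA-AP library than in any control of the same tissue, and that of Akt2 to Akt1 is higher in the OA-AP pancreas and lower in OA-AP adipose tissue than in the controls.

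Besides these 10 genes, 91 other genes of the pathway were listed by role. In the pancreas 82 were tested, 20 were upregulated and 7 downregulated, with a median log2 fold change of 0.31, where 29.8% of all genes were called, 16.2% up and 13.5% down. In adipose tissue 86 were tested, 10 were upregulated and 14 downregulated, with a median of -0.07, where 25.1% of all genes were called, 12.1% up and 13.0% down. Counted over both directions, the share called was thus near that of all genes in each tissue. In the pancreas the calls leaned upward, with the median of 0.31 set against 0.04 over all genes. This is a description, as the list was chosen with earlier results of these data known. The number upregulated was below 20 whenever 1 library was left out. It was lowest in the fits with 1 control left, where fewer of all genes were called too. The same shares of all genes are the background for the counts by role below. Among ligands, binding proteins and their proteases 3 of 11 were downregulated in each tissue and 1 upregulated in adipose tissue. Igfbp5, which encodes a binding protein for IGFs, fell in both, from 21.3 ± 6.16 (SD, n = 2) to 1.91 ± 0.748 CPM (SD, n = 3) in the pancreas (log2 -3.49, SE 0.33, adjusted p = 0.000403) and from 419 ± 66.2 to 84.0 ± 8.92 CPM (SD, n = 3) in adipose tissue (log2 -2.32, SE 0.15, adjusted p = 0.000259). Igfals, which encodes the acid-labile subunit of the circulating IGF complex, was also downregulated in the pancreas (-1.60) and in adipose tissue (-1.70), but the adipose call was lost when any library other than OA-AP replicate 2 was left out, with adjusted p-values of 0.0513 to 0.0809 in a range of 0.000259 to 0.122 over all alternatives, and without OA-AP replicate 2 the value was -2.45. Stc2, which encodes an inhibitor of the IGF-binding protein protease PAPP-A, was downregulated in the pancreas (-1.48). The insulin genes were not called in the pancreas, at 0.34 for Ins1 (adjusted p = 0.162) and 0.57 for Ins2 (adjusted p = 0.0366, below 1.5-fold), and both exceeded 1 with library totals alone. Igf2 had 0 counts in the pancreas and was not called in adipose tissue (-0.61, adjusted p = 0.0895). The adipose Igf2 value was called with library totals alone (-0.76, adjusted p = 0.0466) and without control replicate 1 (-0.83, adjusted p = 0.0193), and was -0.30 without control replicate 3 (adjusted p = 0.255, the highest of the 15 alternatives).

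Among receptors and the growth hormone axis 2 of 8 were upregulated and 1 downregulated in the pancreas, and 3 of 7 and 1 of 7 in adipose tissue. Socs2, a feedback inhibitor of growth hormone signalling, was upregulated in the pancreas (1.61, adjusted p = 0.00328), a call lost without control replicate 2 (adjusted p = 0.0529, the highest of the 14 alternatives). Cish, of the same family, was upregulated in adipose tissue (1.54, adjusted p = 0.0180), a call lost with no filter on low counts (adjusted p = 0.0775, the highest of the 15 alternatives). Of the adaptors 4 of 9 were upregulated in the pancreas and 1 of 10 in adipose tissue. The 1 adaptor downregulated in adipose tissue was Irs3, a rodent docking protein, at 52.5, 62.0 and 62.9 CPM in control and 22.0, 22.7 and 24.6 CPM in OA-AP libraries (log2 -1.36, SE 0.10, adjusted p = 0.000402). It was named after its values were seen. In the pancreas Irs3 had 0 to 3 counts and was not tested.

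PI3K, Akt and their phosphatases gave 5 of 14 up and 2 of 14 down in the pancreas and 0 up and 4 of 14 down in adipose tissue. DESeq2 also called 0 up and 4 down in adipose tissue. At an unadjusted p under 0.05 in edgeR 1 was higher and 7 lower there. Shares of all genes are not given for DESeq2 or for that threshold, so these counts are not read as a result about the group. Akt1, which encodes the widely expressed Akt kinase, was at 130 and 134 CPM in control and 76.5, 73.5 and 63.9 CPM in OA-AP pancreas (log2 -0.89, SE 0.13, adjusted p = 0.00190). With library totals alone the Akt1 value was -0.17 and was not called. Akt2, the isoform tied to glucose uptake, was at 59.6 and 53.5 CPM in control and 88.2, 92.7 and 92.7 CPM in OA-AP pancreas (log2 0.69, SE 0.13, adjusted p = 0.00492, and 0.0828, the highest of the alternatives, without control replicate 2). In adipose tissue Akt2 was at 338, 403 and 466 CPM in control and 261, 152 and 227 CPM in OA-AP libraries (log2 -0.92, SE 0.22, adjusted p = 0.0167, and 0.0586, the highest of the alternatives, without control replicate 3). Akt1 was not called there (0.29, adjusted p = 0.0423, below 1.5-fold). The ratio of Akt2 to Akt1, per length, was 0.263 and 0.230 in control and 0.663, 0.726 and 0.833 in OA-AP pancreas, and 1.49, 1.78 and 1.89 in control and 0.889, 0.565 and 0.776 in OA-AP adipose tissue. The ratios of the OA-AP libraries of both tissues thus overlapped, where those of the controls were far apart.

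The 4 genes of this group downregulated in adipose tissue were Akt2, Pik3cb, Pik3r1 and Pik3r2, of which the PI3K genes encode its catalytic and regulatory subunits. Pik3r2 was downregulated in both tissues, at -1.34 in the pancreas (adjusted p = 0.000611) and -0.90 in adipose tissue (adjusted p = 0.00190). Pik3cb, named after its values were seen, was upregulated in the pancreas, from 1.46 and 3.19 CPM to 6.61, 6.64 and 6.59 CPM (1.52, adjusted p = 0.0104), and downregulated in adipose tissue (-1.03, adjusted p = 0.00430). In the pancreas the Pik3cb call was lost without control replicate 1 (1.06, adjusted p = 0.0655, the highest of the 14 alternatives), and the value was 2.18 without control replicate 2. Phlpp1, which encodes a phosphatase that inactivates Akt, was upregulated in the pancreas (2.00, SE 0.24, adjusted p = 0.000796).

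Of the inhibitors and feedback genes 3 of 8 were upregulated in the pancreas, and 4 of 10 were upregulated and 1 downregulated in adipose tissue. Socs3, a cytokine-induced protein that blocks insulin receptor signalling, was the most increased of the 91 genes among those called in each tissue. In adipose tissue it stood at 14.6, 11.4 and 12.4 CPM in control and 221, 159 and 184 CPM in OA-AP libraries (log2 3.87, SE 0.17, adjusted p = 0.000179). In the pancreas it stood at 4.29 and 3.29 CPM in control and 41.1, 32.3 and 128 CPM in OA-AP libraries (log2 4.14, SE 0.86, adjusted p = 0.0236). The pancreas call held in 11 of the 14 alternatives. Those that lost it included the fit without control replicate 1 and the fit without control replicate 2, each with a single control left. Over all 14 the value ran from 3.22 to 4.78, and it was 3.22 without OA-AP replicate 3, the library with the most neutrophil RNA. That library differed in other marker sums too, and the part of these in its Socs3 level was not tested. Trib1 was upregulated in adipose tissue (2.39, adjusted p = 0.00234), and Trib3, of the same pseudokinase family, was downregulated (-1.52, adjusted p = 0.0217), a call lost without control replicate 2 or 3 or OA-AP replicate 1 or 3, with adjusted p-values of 0.0576 to 0.0717 and 0.000464 at the lowest of all alternatives.

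In the mTOR branch 2 of 12 genes were upregulated in the pancreas and 1 of 12 in adipose tissue, the latter being Deptor, which encodes an inhibitor within the mTOR complexes (1.77, SE 0.18, adjusted p = 0.000894). Of the GLUT4 trafficking genes 3 of 11 were upregulated and 1 downregulated in the pancreas. In adipose tissue 0 of 11 were called by edgeR or by DESeq2. At an unadjusted p under 0.05 in edgeR 5 were higher and 5 lower there. The share of all genes at that threshold is not given, so these 2 counts are not read as a result about the group. Among FOXO factors and metabolic effectors Foxo3, a relative of Foxo1, was the 1 of 9 upregulated in the pancreas (1.82, SE 0.17, adjusted p = 0.000322), and 4 of 11 were downregulated in adipose tissue. Gys2, which encodes a glycogen synthase, was 1 of these (-1.78, adjusted p = 0.00375). Pde3b, which encodes the phosphodiesterase through which insulin restrains lipolysis, and Srebf1, which encodes a lipogenic transcription factor, were named after their values were seen. Pde3b stood at 603, 646 and 654 CPM in control and 247, 194 and 233 CPM in OA-AP adipose tissue (log2 -1.50, SE 0.13, adjusted p = 0.000562), and Srebf1 gave -1.21 (SE 0.25, adjusted p = 0.0112).

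**Figure D5:**
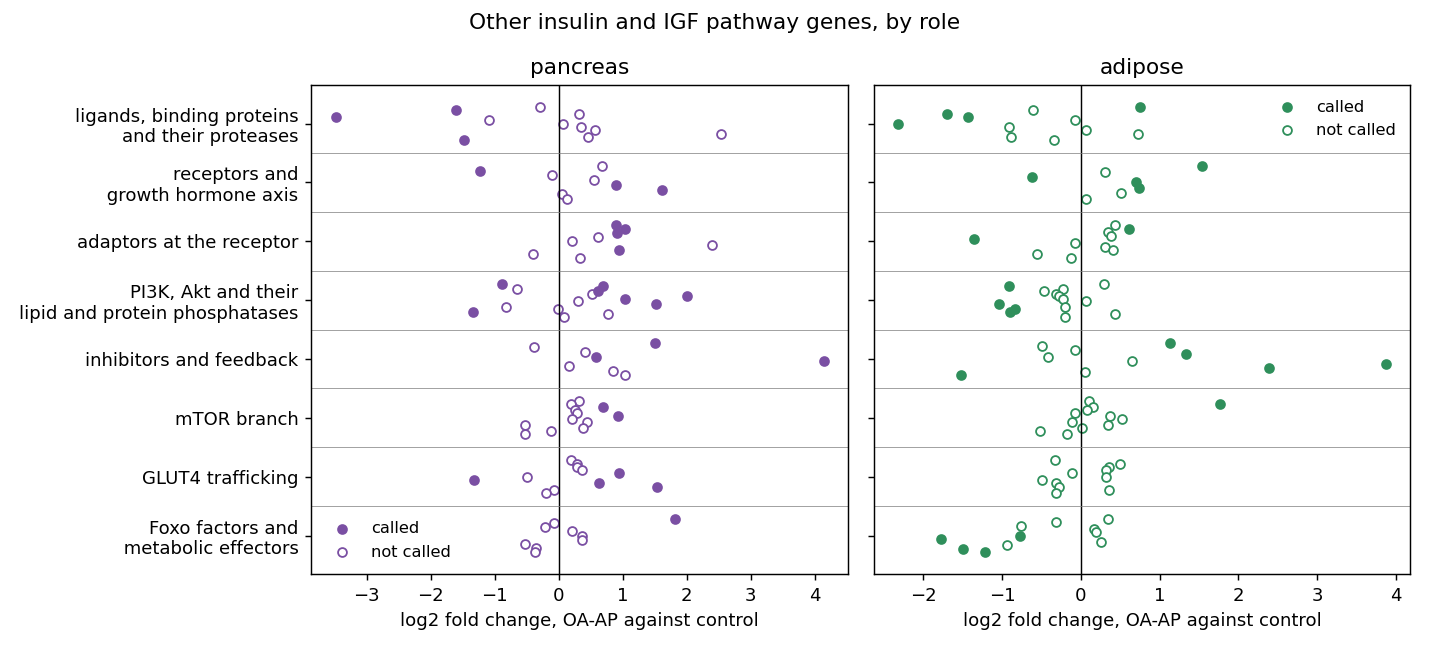
Log2 fold change in OA-AP against control of the other pathway genes tested, 82 in the pancreas (left) and 86 in adipose tissue (right), in rows by role, with filled points for called genes. The point farthest right in each panel is Socs3 (4.14 and 3.87) and the one farthest left is Igfbp5 (-3.49 and -2.32).

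The genes most like each of the 10 over the 11 libraries were found by Pearson's r of log2 CPM among about 8062 well expressed genes. These libraries share a tissue difference that enters each r, so the values are descriptions. The closest was AU040320 to Igf1r (r = 0.998), Smurf2 to Irs2 (0.99), Ndufb9 to Tbc1d4 (0.99), Abca1 to Slc2a4 (0.99), Susd6 to Igfbp3 (0.99), Ski to Insr (0.98), Gpat4 to Irs1 (0.98) and Acap2 to Foxo1 (0.98). Grb10 and Igf1 had weaker matches, Armc10 (0.93) and Podxl (0.90). The second gene for Irs1 was Pik3cb (0.97).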

How the data were processed

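RNA was sequenced from 5 pancreas and 6 epididymal adipose libraries. The authors trimmed reads with Trim Galore 0.6.6, filtered them with fastp 0.20.1, mapped them to GRCm38 with STAR and counted them with featureCounts 2.0.1 (names and versions from the submitters' processing notes, STAR from the methods), and deposited whole-number counts per gene without normalization. The annotation release and strand setting are not given in the sources used here, so reads of overlapping genes cannot be told apart. The antisense gene Igf1os had 9 to 83 counts in adipose tissue, where Igf1 had 2207 to 9930.

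The 10 genes, the 91 other pathway genes and the marker lists were chosen with earlier results of these data known. Low counts were removed with filterByExpr, libraries were scaled with TMM, and the tissues were tested separately with edgeR 4.0.16 (R 4.3.3), adjusted by Benjamini and Hochberg over all genes. The tissue by condition term and the control contrast came from all 11 libraries. SE was obtained from the log2 fold change and F, as their ratio after taking the root of F. The labels do not say that libraries came from separate mice, so p-values cover the spread between libraries. Replicates differed by more than counting noise (lowest chi-square per degree of freedom 6.91). Other pathway genes named were Ins1, Ins2, Igf2, Akt1, Akt2 and the 4 largest calls in each direction per tissue whose mean log2 CPM reached 1. Exceptions are marked. For the genes most like a member the mean reached 3, with a prior count of 2. Alternatives were DESeq2 1.42.0, its size factors, library totals alone, TMM without acinar genes, no filter or 10 counts in every library, a fold threshold of 2 or none, a replicate block and each library left out. All tests were checked on simulated data, with genes changed evenly up and down and no shift in acinar RNA between the compared groups. That check does not cover the dependence of the pancreas values on the scaling.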

Additional observations from a re-analysis of the deposited data

Results flagged for a closer look

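In 5 genes the change in OA-AP differed between the tissues by the tissue by condition term, given as adipose tissue minus pancreas on the log2 scale: Insr by -1.34, Igf1r by -1.33, Irs1 by -2.81, Irs2 by -1.79 and Tbc1d4 by 1.45. For Irs1 every OA-AP library lay above the controls in the pancreas and below them in adipose tissue. Insr, Igf1r and Irs1 were called under every alternative that kept the gene, Irs2 under all but the fit without pancreas control replicate 1, and Tbc1d4 under all but that fit and library totals alone.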

How the results depend on the processing

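With library totals alone as the scaling, the pancreas gave 1 of the 10 genes downregulated, 57 other pathway genes upregulated and 4 downregulated, and 6349 genes called in place of 3834, and Igf1 turned to 0.027, Foxo1 to 0.53, Pde3b to 0.36 and Srebf1 to 0.33. In adipose tissue library totals left 6 other pathway genes upregulated. For the tissue by condition term they gave 0 of the 10 genes higher and 7 lower, 1 and 51 other pathway genes, 6527 genes called and Igf1 at -0.34. Between control tissues they gave 9 of the 10 genes higher and 0 lower, 79 and 4 other pathway genes, 15368 genes called and Igfbp3 at 2.17. A fold threshold of 2 left 1 of the 10 genes downregulated, 9 other pathway genes upregulated and 2464 genes called in the pancreas, 6 up, 9 down and 2228 called in adipose tissue, 6 higher for the tissue by condition term and 11 lower between control tissues. No fold threshold gave 19 other pathway genes upregulated in adipose tissue, DESeq2 gave 2 of the 10 upregulated there, and 10 counts in every library left 5808 genes called between control tissues. With 10 counts in every library Irs1 left the pancreas fit. Without a filter the pancreas called Grb10 (0.71, adjusted p = 0.000407).

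With each library left out in turn, the pancreas gave 1 to 2 of the 10 genes downregulated, 6 to 18 other pathway genes upregulated, 1495 to 4265 genes called and Foxo1 from -0.33 to 0.038. The lowest counts of other pathway genes and of all genes came without control replicate 2, and without control replicate 1 they were 8 and 1687. Adipose tissue gave 0 to 1 of the 10 upregulated (1 without OA-AP replicate 1), 7 to 15 other pathway genes downregulated (7 without control replicate 3) and Igf1 from -0.51 to 0.23. The tissue by condition term gave 0 to 1 of the 10 higher, 12 to 20 other pathway genes lower, 2332 to 3654 genes called (0 without pancreas control replicate 1, 20 without adipose OA-AP replicate 1 and 2332 without pancreas control replicate 2) and Foxo1 from -0.54 to 0.035. A lone pancreas control is assumed to vary like the OA-AP libraries. The causes were not tested.

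Same-numbered samples did not deviate together (correlations of -0.16 to 0.09). Deviations from means of 2 or 3 libraries cannot show whether same-numbered samples came from the same mouse, and the labels do not say. With a replicate block the tissue by condition term called 2156 genes in place of 3507, and Tbc1d4 between control tissues fell below 1.5-fold (0.53). Among the 10 genes and the counts given here, the block changed no other call, and it brought Ins2 in the pancreas past 1.5-fold (0.60).

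Depth limits Irs1 and Slc2a4 in the pancreas, where the controls held 9 and 0 counts.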
